A study of Mus musculus with 10 samples.

Results

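The 10 genes described are RNA-binding regulators of splicing, and a kinase of splicing factors, that act on titin and other muscle transcripts: Rbm20, Rbm24, Rbfox1, Rbfox2, Mbnl1, Mbnl2, Celf1, Celf2, Ptbp1 and Srpk3. They were chosen by gene symbol, and all 10 were found among the 23337 genes listed in the count tables. Bulk RNA-Seq of polyadenylated RNA was performed on left ventricle (LV) and skeletal muscle (SkM) of 2 WT and 3 E0del/+ mice, which gave 10 libraries, with 1 LV and 1 SkM library from each mouse. E0del/+ mice are heterozygous for a CRISPR/Cas9 deletion of E0, a conserved enhancer sequence in intron 1 of the titin gene Ttn, and WT mice carry no deletion. All mice were hybrids from crosses of C57BL/6 E0del/+ with 129SvEv WT mice. Several independent deletion lines exist, and the labels name E0del alone. Neither sex nor age is in the labels, and the age of these hybrid mice is not given in the sources used here. Libraries held 11010021 to 15361520 counts in LV and 13892390 to 17484873 in SkM.

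Titin is made as isoforms that differ in the length and stiffness of their elastic region, and these isoforms are set by alternative splicing. RBM20 binds pre-mRNA of titin and represses inclusion of its spring exons, so that cardiac titin becomes shorter and stiffer, and loss of RBM20 function causes dilated cardiomyopathy. Most other members bind short motifs near exons of many muscle transcripts, and the outcome depends on the balance among them. The gene tables used here count reads per gene and not per exon, so isoforms were not measured.

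Several libraries stood apart from their labels. Fast skeletal muscle fibre markers, a list of 10 genes of which the myosin gene Myh4 was the most abundant in every library, summed to 24487 CPM (counts scaled to a common library size) in WT LV replicate 2 and to 100 to 123 CPM in the other LV libraries. Myh4 itself was at 15968 CPM in that library, against 50.8 to 66.4 CPM in the other LV libraries and 83122 to 106209 CPM in SkM. Cardiac markers, led by Myh6, summed to 55498 CPM in WT LV replicate 2 and to 58561 to 80639 CPM in the other LV libraries, so RNA of both muscles was present there. In SkM the 10 cardiac markers summed to 275 to 2595 CPM, led by Actc1, and Myl7 was at 0 in WT SkM replicate 1. Y-linked genes summed to 24.4 CPM in WT SkM replicate 1, where Xist was at 449 CPM, whereas the LV library of the same mouse had 0.363 CPM of Y-linked RNA and 408 CPM of Xist. Both tissues of WT replicate 2 and E0del/+ replicate 3 had 182 to 222 CPM of Y-linked RNA and 0.476 to 4.21 CPM of Xist, and the other mice had 357 to 574 CPM of Xist. All 10 cardiac markers were higher in LV and all 10 fast fibre markers higher in SkM, as the tissue labels say. Several results for the members are therefore also given without WT replicate 1 or 2. CPM here are scaled by TMM factors, which come from a trimmed mean of log ratios of genes between libraries, and compare a gene between libraries. With these factors the median log2 difference between LV and SkM was 0.06 over all genes tested.

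Rbm20 was the member with the highest level in LV relative to SkM. Rbm20 lies on chr19:53677306-53867080 (mm10, plus strand) and has 14 exons in the gene models of the files. In LV it was at 363 CPM in WT replicate 1, 293 CPM in WT replicate 2, and 343, 320 and 358 CPM in E0del/+ replicates 1, 2 and 3. In SkM of the same mice it was at 92.8, 143, 114, 124 and 111 CPM. Every LV library was above every SkM library, and the lowest LV value belonged to WT replicate 2. The mean was 336 ± 28.9 CPM in LV and 117 ± 18.5 CPM in SkM (SD, n = 5 each). The fitted level was 2.89-fold higher in LV, and folds of other single genes below are fitted too. The log2 difference within mice was 1.53 ± 0.15 (SE; adjusted p = 0.000112 in edgeR's quasi-likelihood test, two-sided, Benjamini-Hochberg over all genes tested), higher in 5 of 5 mice, and it was 1.62 without WT replicate 2 and 1.36 without WT replicate 1.

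Ttn, the main target of RBM20, ran the other way. Its level was 6056 ± 1475 CPM in LV and 22829 ± 3778 CPM in SkM (n = 5 each), lower in LV in 5 of 5 mice. The log2 difference was -1.93 ± 0.32 (adjusted p = 0.00128 in edgeR's quasi-likelihood test, Benjamini-Hochberg method). With total counts in place of TMM it was -1.31. Within each library, the log2 ratio of Rbm20 to Ttn per exon length was -0.16 ± 0.42 in LV and -3.62 ± 0.39 in SkM. That is an 11.1-fold higher ratio in LV, in the same direction in 5 of 5 mice. An exact two-sided permutation of signs within mice gave an adjusted p of 0.0714 (Benjamini-Hochberg over the 8 ratios compared). With 5 mice this test cannot give a p under 0.05 whatever the ratios are, so the ratios between tissues are described by their values and by the number of mice in each direction.

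RBM24, a heart and skeletal muscle splicing regulator needed for sarcomere assembly, differed less between tissues. Rbm24 was at 196 ± 22.5 CPM in LV and 239 ± 36.1 CPM in SkM (n = 5 each), with overlapping ranges and 4 of 5 mice lower in LV. Its log2 difference of -0.28 ± 0.13 was not past the threshold (adjusted p = 0.103 in edgeR's quasi-likelihood test, Benjamini-Hochberg method), and with total counts in place of TMM it was 0.34 and past the threshold. Lower in LV, it passed the threshold with DESeq2 (-0.33, adjusted p = 0.0460) and in edgeR without WT replicate 1 (-0.45, adjusted p = 0.0485). The log2 ratio of Rbm20 to Rbm24 per exon length, which needs no scaling between libraries, was -0.25 ± 0.18 in LV and -2.06 ± 0.09 in SkM. It was 3.51-fold higher in LV, in 5 of 5 mice (adjusted p = 0.0714, exact permutation of signs).

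RBFOX proteins bind GCATG in introns beside regulated exons. With TMM, Rbfox1 showed the largest difference between tissues among the members. With total counts Rbfox1 was at -2.16 and Rbm20 at 2.16, about equal in size. The level of Rbfox1 in LV was 67.7 CPM in WT replicate 1 and 120 CPM in WT replicate 2. It was 60.9, 46.7 and 66.2 CPM in E0del/+ replicates 1, 2 and 3. In SkM it was 399 and 555 CPM in WT and 486, 507 and 432 CPM in E0del/+. The ranges did not overlap, and the highest LV value was that of the library with SkM transcripts. Rbfox1 was 6.87-fold lower in LV (log2 difference -2.78 ± 0.19, adjusted p = 2.38e-05 in edgeR's quasi-likelihood test, Benjamini-Hochberg method; lower in 5 of 5 mice), and -2.97 without WT replicate 2. Rbfox2, the more widely expressed paralog, was at 127 ± 13.1 CPM in LV and 136 ± 15.5 CPM in SkM, with overlapping ranges and a log2 difference of -0.10 ± 0.13 that did not pass the threshold. That difference was 0.53 and past the threshold with total counts, and 0.03 without E0del/+ replicate 2. The share of Rbfox1 in the sum of both genes, per exon length, was 42.2 ± 7.51% in LV and 82.3 ± 2.03% in SkM, lower in LV in 5 of 5 mice (adjusted p = 0.0714, exact permutation of signs). The LV share was 55.3% in WT replicate 2 and 37.4 to 41.4% in the other mice.

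MBNL proteins promote adult splicing patterns in muscle and are sequestered by expanded CUG repeats in myotonic dystrophy. Mbnl1 was at 195 and 270 CPM in WT LV and at 174, 159 and 198 CPM in E0del/+ LV. In SkM it was at 721 and 644 CPM in WT and at 802, 882 and 619 CPM in E0del/+. All LV libraries were below all SkM libraries, and WT replicate 2 was the highest in LV. The level was 3.71-fold lower in LV (log2 difference -1.89 ± 0.20, adjusted p = 0.000150 in edgeR's quasi-likelihood test, Benjamini-Hochberg method; 5 of 5 mice). Mbnl2, its paralog, was 1.91-fold lower in LV (206 ± 31.7 against 394 ± 76.8 CPM, log2 difference -0.93 ± 0.20, 5 of 5 mice), and with total counts the difference was -0.31 and no longer past the threshold. Mbnl1 made up 43.0 ± 2.86% of the pair in LV and 59.4 ± 1.26% in SkM, lower in LV in 5 of 5 mice (adjusted p = 0.0714, exact permutation of signs).

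**Figure D1:**
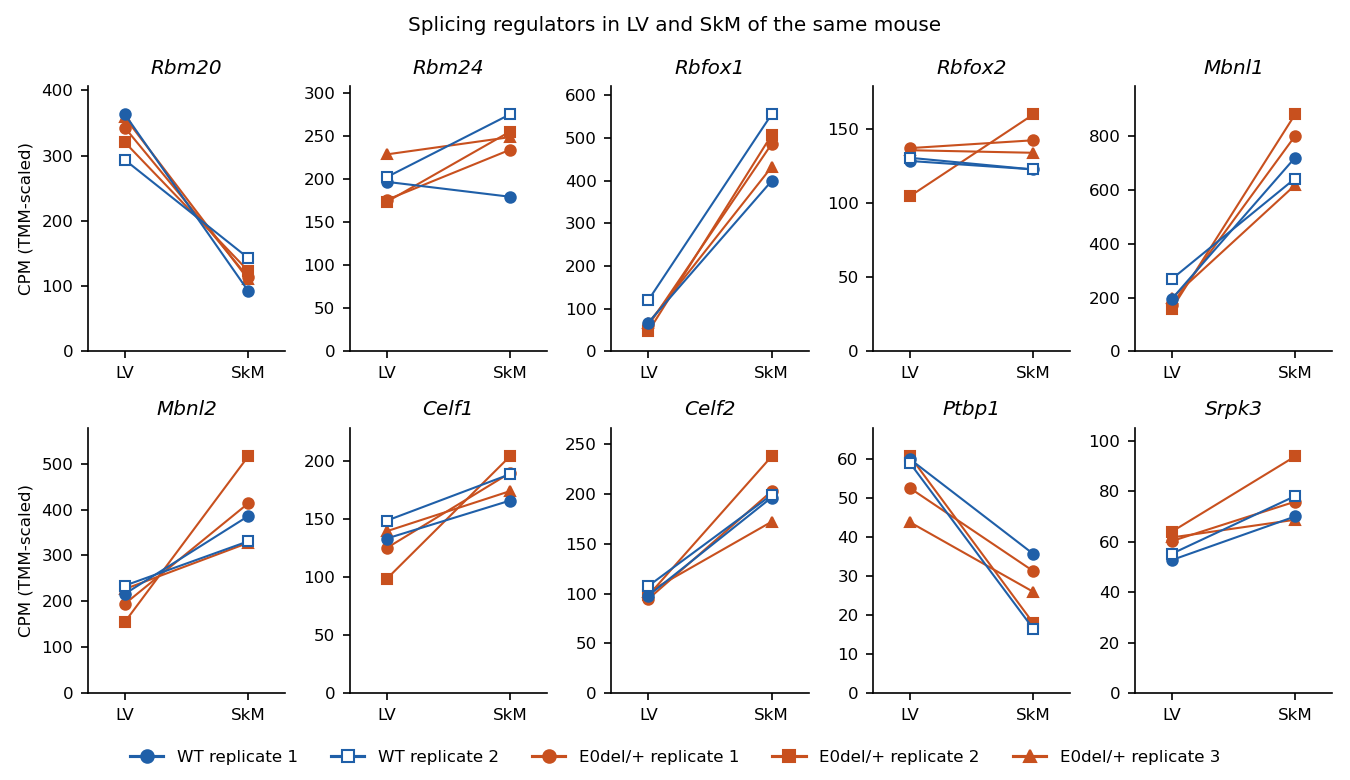
Level of each member in LV and SkM (CPM, TMM-scaled), with a line for each mouse; blue marks WT, orange marks E0del/+, and open squares mark WT replicate 2. Rbm20 falls from LV to SkM in 5 of 5 mice, and Rbfox1 and Mbnl1 rise in 5 of 5.

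CELF proteins bind GU-rich elements and often act against MBNL proteins on the same exons. Celf2 was at 98.1 and 108 CPM in WT LV and at 94.6, 98.2 and 102 CPM in E0del/+ LV, against 196 and 199 CPM in WT SkM and 202, 237 and 172 CPM in E0del/+ SkM. Ranges were apart, and Celf2 was 2.00-fold lower in LV in 5 of 5 mice (log2 difference -1.003 ± 0.11, adjusted p = 0.000179 in edgeR's quasi-likelihood test, Benjamini-Hochberg method). With total counts in place of TMM its difference was -0.38, still past the threshold, and the ranges overlapped. Celf1, a regulator of fetal splicing and of mRNA stability, was 1.44-fold lower in LV (129 ± 19.1 against 184 ± 14.8 CPM; log2 difference -0.52 ± 0.14), but with total counts its difference was 0.10 and not past the threshold. Celf1 made up 60.4 ± 3.32% of the Celf1 and Celf2 sum in LV and 52.3 ± 1.86% in SkM, higher in LV in 5 of 5 mice. The log2 ratio of Mbnl1 to Celf1 per exon length was 1.07 ± 0.16 in LV and 2.44 ± 0.17 in SkM, lower in LV in 5 of 5 mice, and the adjusted p was 0.0714 by exact permutation of signs for both measures.

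**Figure D2:**
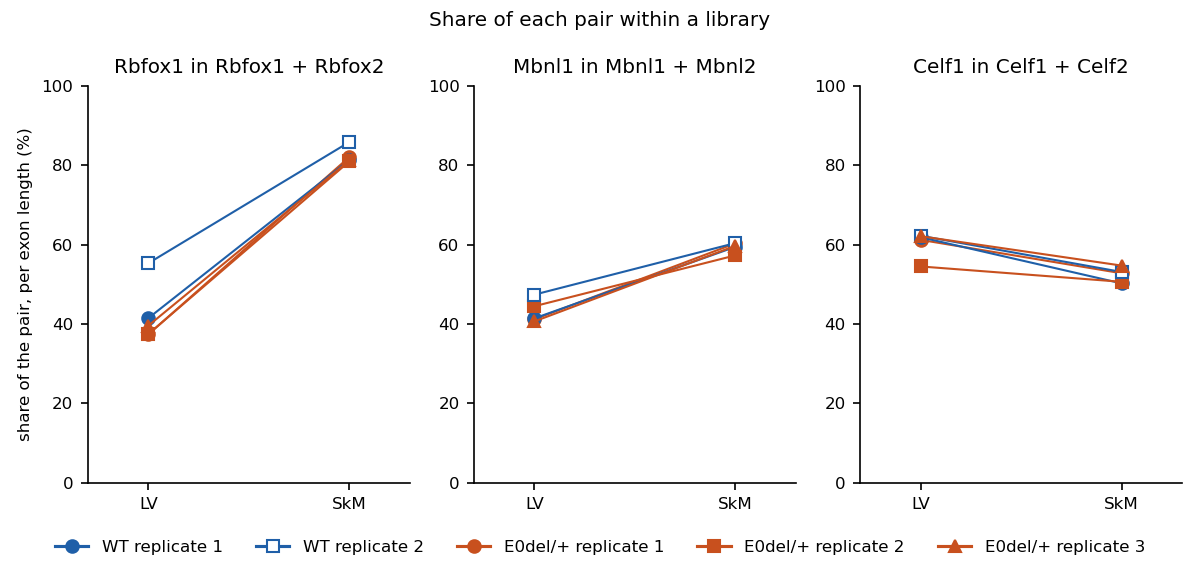
Share of the first gene in the sum of a pair of paralogs (percent, per exon length) in LV and SkM of each mouse, with a line for each mouse and open squares for WT replicate 2. The share of Rbfox1 is 42.2% on average in LV and 82.3% in SkM.

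PTBP1, a repressor of exons that muscle and neurons include, and SRPK3, a muscle kinase of SR proteins, made up the rest. Ptbp1 was at 59.8 and 58.8 CPM in WT LV and at 52.4, 60.6 and 43.7 CPM in E0del/+ LV. In SkM it was at 35.6 and 16.5 CPM in WT and at 31.2, 17.9 and 25.9 CPM in E0del/+. All LV values were above all SkM values, and within SkM both replicates numbered 2 were the lowest. The level was 2.23-fold higher in LV (log2 difference 1.16 ± 0.21, adjusted p = 0.00203 in edgeR's quasi-likelihood test, Benjamini-Hochberg method; 5 of 5 mice). Reads of Ptbp1 are uncertain over 178 and 117 bp of exons shared with BC005764 and E130317F20Rik on the opposite strand, whose own levels were 1.51 to 8.17 and 0.451 to 5.47 CPM, since the strand was not kept. The log2 ratio of Rbm20 to Ptbp1 per exon length was 1.44 ± 0.28 in LV and 1.08 ± 0.70 in SkM, higher in LV in 3 of 5 mice (p = 0.375 by exact permutation of signs).

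Ptbp1 is broadly expressed, and markers of other cells moved between tissues as well. Endothelial markers (6 of 6 genes higher in LV, led by Cdh5) summed to 942 to 1544 CPM in LV and 163 to 297 CPM in SkM. Fibroblast markers (6 of 6 higher in LV) summed to 745 to 1261 CPM in LV, led by Dcn or Col3a1, and to 196 to 606 CPM in SkM. Smooth muscle and pericyte markers (4 of 6 higher in LV, led by Rgs5 in all but 1 library) summed to 407 to 641 CPM in LV and 96.3 to 233 CPM in SkM. Of 6 leukocyte markers, 3 were higher and 1 lower in LV, with sums of 45.2 to 63.7 CPM in LV, led by Csf1r, and 10.6 to 145 CPM in SkM. Adipocyte markers, led by Cfd, had 0 of 5 genes past the threshold and summed to 241 CPM in WT LV replicate 2, to 1.58 to 19.3 CPM in the other LV libraries, and to 12.1 to 1484 CPM in SkM. Schwann cell markers had 2 of 5 genes lower in LV, with sums of 8.79 to 20.1 CPM in LV and 12.5 to 80.8 CPM in SkM. Their part in the results was not tested, and in bulk tissue fewer cells of a type and less RNA per cell cannot be told apart.

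Srpk3 was 1.31-fold lower in LV than in SkM (58.8 ± 4.65 against 77.3 ± 10.01 CPM; log2 difference -0.39 ± 0.09, 5 of 5 mice), but with total counts its difference was 0.24 and past the threshold. Per exon length and within libraries, the log2 ratio of Srpk3 to the ubiquitous kinase Srpk1 was 1.88 ± 0.12 in LV and 2.44 ± 0.27 in SkM, lower in LV in 5 of 5 mice (adjusted p = 0.0714, exact permutation of signs). RefSeq promoter windows (GRCm38.p6, 250 bases before to 50 bases after a start) matched 8 of 10 members, with 14 windows. They were searched on both strands for the MEF2 consensus, the serum response factor CArG box, the NKX2-5 core (TNAAGTG), the E-box (CANNTG) and the TEAD M-CAT (CATTCC). Srpk3 is shown because it was the member with a match to the MEF2 consensus, which 3.19% of all 32851 windows hold. Its window, at chrX:73774155-73774454 on the plus strand, carries that match and 2 E-boxes in capitals, which do not overlap.
Srpk3: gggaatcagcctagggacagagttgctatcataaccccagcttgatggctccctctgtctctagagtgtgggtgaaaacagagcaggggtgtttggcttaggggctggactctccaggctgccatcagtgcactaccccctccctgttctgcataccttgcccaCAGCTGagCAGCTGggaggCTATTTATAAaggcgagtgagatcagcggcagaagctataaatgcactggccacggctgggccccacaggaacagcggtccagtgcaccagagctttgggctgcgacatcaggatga
E-boxes were present in 72.3% of all windows and in 9 of the 14, belonging to 6 members. Celf2 has several windows, of which 2 overlap and hold the same E-boxes, so the 14 windows are not independent. The NKX2-5 core (11.5% of all windows) was found in 4 of the 14, which are windows of Celf2 and Rbfox1. A match in Celf2, counted in both overlapping windows, shares bases with an E-box, and the match in Rbfox1 does not. The M-CAT (14.7%) was found in a window of Celf2, and the CArG box (1.63%) in 0 of the 14. A match is a description of sequence only.

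Across the fit, 8 of the 10 members were past the threshold between LV and SkM, where 59.8% of 14327 genes tested were. Higher in LV were 2 members (Rbm20 and Ptbp1), against 32.1% of all genes, and higher in SkM were 6, against 27.7%. With total counts in place of TMM, 5 members were past the threshold and higher in LV (Rbm20, Ptbp1, Rbm24, Rbfox2 and Srpk3). Higher in SkM were 3 (Rbfox1, Mbnl1 and Celf2), and all were named after their values were seen. Of all 14327 genes tested, 8154 were then past the threshold higher in LV and 1706 higher in SkM. Rbm20 was then at 2.16, Ptbp1 at 1.78, Rbfox1 at -2.16 and Mbnl1 at -1.27. The median log2 difference was -0.46 over the members and 0.06 over all genes tested. The median of all genes rose by 0.62 with total counts in place of TMM, and the split of all calls moved from 53.7% to 82.7% higher in LV.

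**Figure D3:**
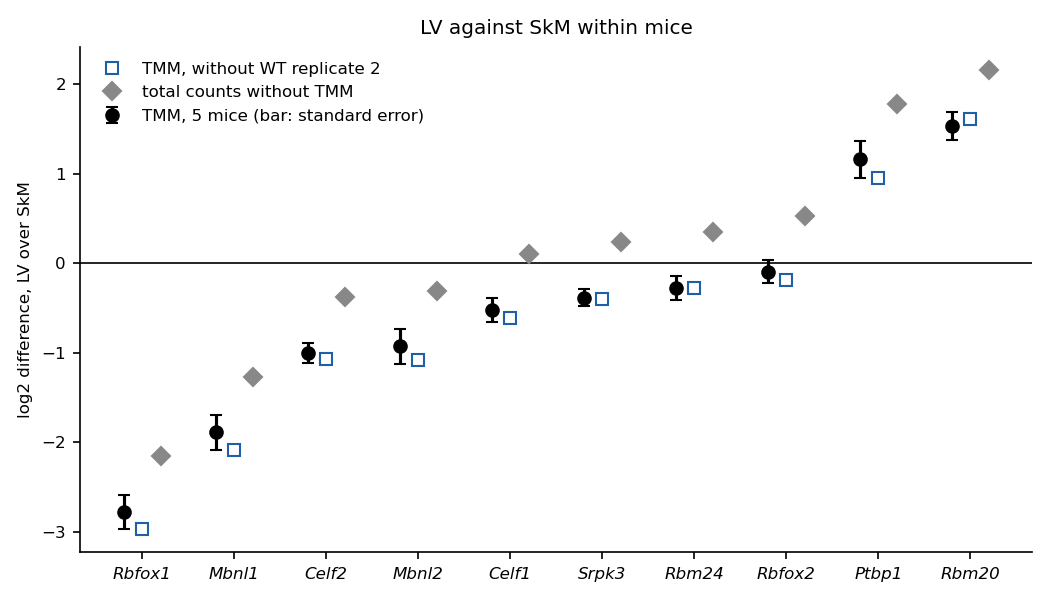
Log2 difference of each member between LV and SkM within mice, as black points with standard errors, blue squares without WT replicate 2 and grey diamonds for total counts without TMM. Rbfox1 is lowest at -2.78 and Rbm20 highest at 1.53, and Celf1, Srpk3, Rbm24 and Rbfox2 change sign with total counts.

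Levels per kilobase of exon (RPKM) gave a different order of members in each tissue. In LV the order was Rbm24 (75.1 ± 5.69 RPKM), Rbm20 (63.3 ± 7.20), Mbnl2 (55.7 ± 5.28), Mbnl1 (42.3 ± 6.73), Srpk3 (37.4 ± 5.11), Ptbp1 (23.5 ± 4.36), Rbfox2 (21.4 ± 1.20), Celf1 (19.9 ± 1.71), Rbfox1 (16.2 ± 5.35) and Celf2 (13.1 ± 0.88). In SkM it was Mbnl1 (102 ± 18.4 RPKM), Mbnl2 (70.1 ± 14.9), Rbfox1 (69.6 ± 5.61), Rbm24 (59.2 ± 5.54), Srpk3 (31.7 ± 3.74), Celf1 (18.6 ± 1.46), Celf2 (17.1 ± 2.20), Rbfox2 (14.96 ± 1.95), Rbm20 (14.2 ± 1.25) and Ptbp1 (7.14 ± 2.83). Ranges of neighbours were apart between Srpk3 and Ptbp1 in LV, and in SkM between Rbfox1 and Rbm24, Rbm24 and Srpk3, Srpk3 and Celf1, and Rbm20 and Ptbp1. All other neighbours overlapped.

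The genes nearest to Rbm20 in profile over the 10 libraries, by root mean square difference of centred log2 CPM among 14327 genes, were Mdh1 (0.12), Adamtsl5 (0.12), Trmt5 (0.13), Meis1 (0.14) and Acadvl (0.15). All of these had a log2 difference between LV and SkM near that of Rbm20 (1.53), from 1.38 for Acadvl to 1.54 for Trmt5. Mdh1 encodes cytosolic malate dehydrogenase and Acadvl a mitochondrial fatty acid oxidation enzyme.

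Related regulators and targets of splicing were examined as lists, beside 32.1% higher and 27.7% lower in LV among all genes tested and their median of 0.06. No list was tested against all genes. Of 19 tested among related regulators, 7 were higher and 2 lower in LV (median log2 difference 0.35), led by Srrm4 (4.57), a regulator of microexons, and Rbpms2 (4.01). Rbm38 (-0.70) and Ptbp2 (-0.45) were the lower ones, of which Ptbp2 was at 0.18 with total counts. Of 12 SR proteins, which bind exonic enhancers, 4 were higher and 0 lower in LV (median 0.29), led by Tra2a (0.57) and Srsf3 (0.43). Among 23 hnRNP proteins 6 were higher and 2 lower (median 0.01), with Hnrnph3 (1.05) and Hnrnpl (0.77) as the largest rises, and with Hnrnpdl (-0.28) and Hnrnpll (-0.28) as the lower genes past the threshold, both at 0.34 with total counts. Of 8 kinases and import factors of SR proteins, 0 were higher and 2 lower in LV, Akt2 (-1.02) and Clk3 (-0.69), with a list median of -0.05. With total counts these counts became 13 higher and 0 lower, 12 and 0, 19 and 0, and 5 and 1, in that order of lists. Of all 14327 genes tested, 8154 were then higher and 1706 lower in LV.

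Among 20 transcripts spliced by RBM20, 7 were higher and 9 lower in LV (median -0.28). Ryr2 (9.10), the cardiac ryanodine receptor, and the calcium channel gene Cacna1c (6.85) had the largest rises, and Pdlim3 (-3.95) and Rtn4 (-3.17) the largest falls. Of 14 transcripts spliced by MBNL and CELF proteins, 3 were higher and 11 lower (median -1.18), led by Tnnt2 (8.70) among the higher, and by Ryr1 (-9.86) and Atp2a1 (-9.83) among the lower, which are skeletal muscle genes also present in WT LV replicate 2. Without WT replicate 2 they were at -10.66 and -10.60. With total counts, 10 were higher and 8 lower in the RBM20 list, and 3 and 7 in the MBNL and CELF list. These stand beside 8154 higher and 1706 lower of all 14327 genes tested under that scaling. Slow fibre markers had 1 gene higher and 2 lower of 4 in LV, led by Myh7, with sums of 1374 to 2015 CPM in LV and 130 to 2400 CPM in SkM. Erythroid markers had 2 of 2 tested higher in LV, with sums of 102 to 131 CPM in LV and 18.4 to 146 CPM in SkM, and Hba-a1 and Hba-a2 were at 0 in every library.

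**Figure D4:**
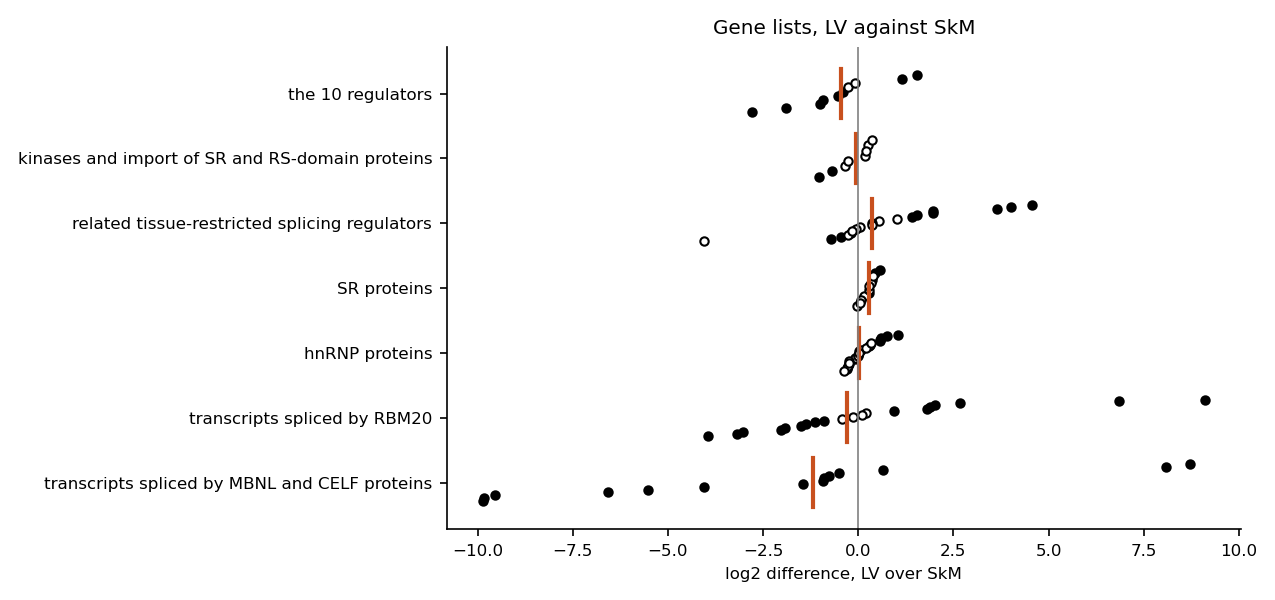
Log2 difference between LV and SkM for the 10 regulators and the genes of the 6 lists that do not mark a cell type, with filled points past the threshold, open points not past it, and an orange bar at the list median. The medians of these 6 lists run from -1.18 for transcripts spliced by MBNL and CELF proteins to 0.35 for related regulators.

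Between genotypes, 0 members and 0 genes passed the threshold in either tissue. In LV, 0 of 13420 genes (0%) were called by edgeR's quasi-likelihood test, and 564 (4.20%) had an unadjusted p under 0.05. DESeq2 called 12 in LV, among them the fast fibre genes Myh4, Actn3 and Tnnt3. Fast fibre markers summed to 24487 CPM in WT LV replicate 2 and to 100 to 123 CPM in the other LV libraries. In SkM, 0 of 13154 genes (0%) were called, 114 (0.867%) had an unadjusted p under 0.05, and DESeq2 called 0. In edgeR's test every list had 0 genes past the threshold between genotypes in both tissues. The 12 genes of DESeq2 in LV included 7 of the 10 fast fibre markers. Ryr1, Atp2a1 and Tnnt3 of the transcripts spliced by MBNL and CELF proteins were also among them. All were named after their values were seen. In edgeR, the LV log2 difference of Ryr1 was -6.94 with all libraries and 0.37 without WT replicate 2. That of Atp2a1 was -7.02 and 0.23. The part of WT LV replicate 2 in the DESeq2 calls was not tested. Rbm20 was at 328 ± 49.3 CPM in WT LV (n = 2) and 340 ± 19.2 CPM in E0del/+ LV (n = 3), a log2 difference of 0.04 ± 0.20, and at 118 ± 35.6 and 116 ± 6.82 CPM in SkM, a log2 difference of 0.00 ± 0.20. Ranges overlapped in both tissues. Within batches 1 and 2, the ratio of E0del/+ to WT was 0.944 and 1.09 in LV, and 1.22 and 0.863 in SkM, so the direction differed between batches. Without WT replicate 2 the log2 difference was -0.10 in LV and 0.33 in SkM. Ttn in LV was at 6268 and 8077 CPM in WT and at 6288, 3964 and 5680 CPM in E0del/+. Its log2 difference was -0.45 ± 0.27, with ratios of 1.00 and 0.491 within batches 1 and 2. It was -0.25 without WT replicate 2 and -0.61 without WT replicate 1.

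Rbfox1 in LV had the largest difference of any member between genotypes, at a log2 difference of -0.71 ± 0.26 (adjusted p = 0.997 in edgeR's quasi-likelihood test, Benjamini-Hochberg method). All 3 E0del/+ LV libraries were below both WT libraries, which were at 67.7 and 120 CPM. The higher WT value was that of the library with SkM transcripts. The difference was -0.23 without WT replicate 2, and -1.06 (adjusted p = 0.0309 by edgeR's quasi-likelihood test) without WT replicate 1, which leaves that library as the sole WT sample. Within batches 1 and 2 the ratio of E0del/+ to WT was 0.900 and 0.388. Mbnl1 in LV was at -0.40 ± 0.21 with all libraries and -0.15 without WT replicate 2, with overlapping ranges and ratios of 0.891 and 0.590 within batches. Without WT replicate 1 it was at -0.61 and not past the threshold.

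The other members had log2 differences between -0.24 and 0.19 in LV. In SkM all members lay between -0.04 and 0.27 with all libraries, but leaving out a library moved several of them further. Ptbp1, at -0.04 with all libraries, was at 0.65 without WT replicate 1 and at -0.50 without WT replicate 2, and Rbm24 was at -0.12 and 0.46. The value of 0.27 was that of Rbfox2, whose 3 E0del/+ libraries (143, 160 and 134 CPM) were above both WT libraries (123 and 123 CPM). Srpk3 in LV also had all 3 E0del/+ libraries (60.3, 64.0 and 61.7 CPM) above both WT libraries (52.8 and 55.3 CPM), with a log2 difference of 0.19 ± 0.14. Ranges of 2 against 3 libraries easily come apart by chance, since these mice have only 10 splits. The share of all genes with ranges apart was not counted, between genotypes or between tissues. An interaction between genotype and tissue passed the threshold for 0 of 14327 genes (0%), with 238 (1.66%) at an unadjusted p under 0.05 and 0 by DESeq2. For Rbm20 it was 0.05 ± 0.34 on the log2 scale, and for Rbfox1 -0.66 ± 0.31 (adjusted p = 1 in edgeR's quasi-likelihood test). The 8 ratios gave p of 0.1 or more by exact permutation of genotype labels, where 2 against 3 mice cannot give less.

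**Figure D5:**
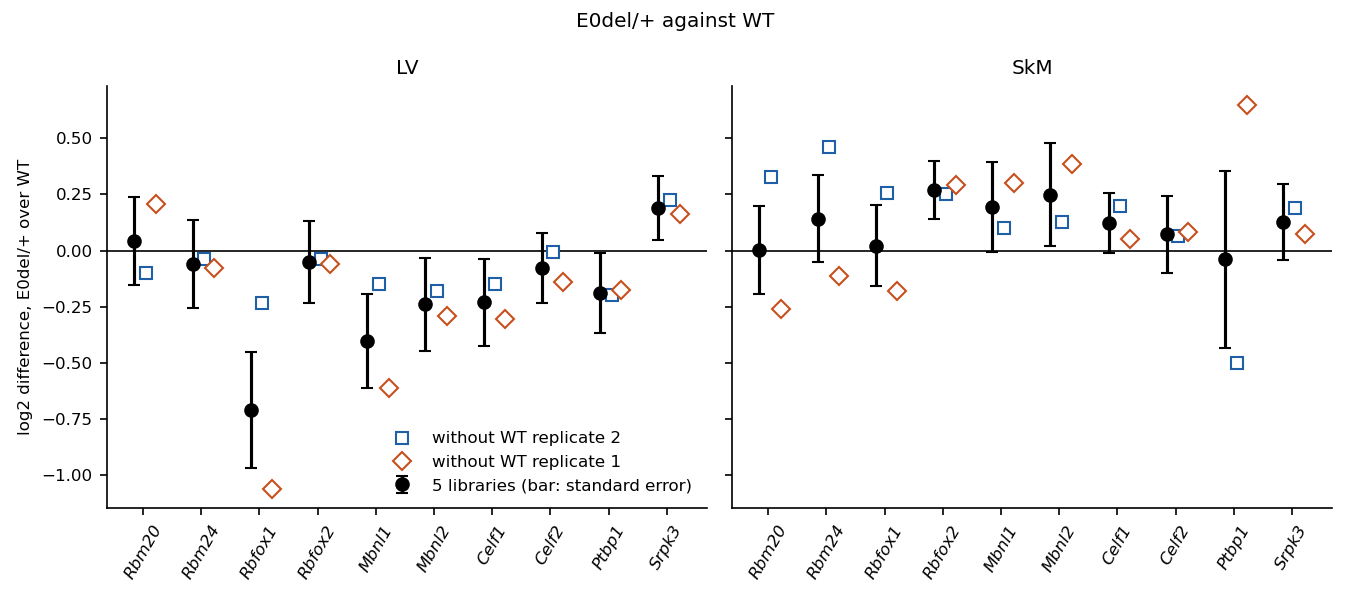
Log2 difference of each member between E0del/+ and WT in LV and SkM, as black points with standard errors, blue squares without WT replicate 2 and orange diamonds without WT replicate 1. Rbfox1 in LV moves from -0.71 to -0.23 without WT replicate 2.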

How the data were processed

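RNA of LV and SkM from 5 mice was sequenced by the authors from polyadenylated RNA with the Nextera XT kit, which does not keep strand. For every library the authors deposited a raw count and an RPKM value per gene, and their notes name STAR, DESeq2 and the build mm10. The counting software and annotation are not given in the sources used here. RPKM equalled the deposited count divided by summed exon length and by the library total.

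Counts were tested in R 4.3.3 with edgeR 4.0.16 (filterByExpr, TMM, quasi-likelihood test, Benjamini-Hochberg adjustment over all genes tested, threshold 0.05). LV against SkM had the mouse as a block, since both tissues came from the same animal, and 8875 genes were called with no replicate block. Genotypes were compared within each tissue. The batch label equals the replicate number so batches 1 and 2 each hold a WT and an E0del/+ mouse. Deviations from group means correlated by 0.0310 and -0.118 in LV and by 0.518 and 0.310 in SkM in these pairs. Deviations of 2 WT libraries from their mean mirror each other, so the values of a tissue are not independent. Between LV and SkM of the same mouse, deviations correlated by -0.101 to 0.0918. With the replicate block, 5 genes were called between genotypes in LV (Mstn and the Y-linked Kdm5d, Eif2s3y, Uty and Ddx3y) and 1 in SkM (Eif2s3y). Standard errors are the log2 difference over the square root of its F statistic. Within-library ratios were tested by exact two-sided permutation. Alternatives were DESeq2 1.42.0, its size factors, total counts, other filters, a block of Xist expression (over 100 CPM), and leaving out each mouse or library.

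The members and lists were chosen with earlier results of these data known. Named genes were all members, Ttn, up to 2 rises and 2 falls past the threshold in each list that does not mark a cell type, list genes past the threshold between genotypes, and the 5 genes nearest to Rbm20. Genes called under few alternatives were named after their values were seen. Lists not marking cell types were kinases and import factors of SR proteins, related regulators, SR proteins, hnRNP proteins, and transcripts spliced by RBM20 or by MBNL and CELF proteins. Marker lists covered cardiomyocytes, fast and slow fibres, endothelium, fibroblasts, smooth muscle and pericytes, leukocytes, adipocytes, Schwann cells and erythroid cells. The tests were checked on counts simulated with a fixed spread, not that of these mice, where 92 of 98 genes changed by log2 1 were recovered between LV and SkM, 83 of 99 between genotypes in LV and 76 of 99 in SkM.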

Additional observations from a re-analysis of the deposited data

Results flagged for a closer look

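In groups of 5 libraries, 36 sets of values were examined for a sample far from the others, and 5 stood apart. Chance alone marks about 1 in 20 groups when the groups are independent. Here levels and shares reuse the same counts, so the 5 are not independent of each other. The level of Rbfox1 was 120 CPM in WT LV replicate 2, above the other LV libraries at 46.7 to 67.7 CPM. The share of Rbfox1 in the sum of Rbfox1 and Rbfox2 was 55.3% in the same library, where the other LV libraries had 37.4 to 41.4%. In SkM of the same mouse that share was 85.9%, against 81.0 to 82.1% in the other SkM libraries. In E0del/+ LV replicate 2, Rbfox2 was at 105 CPM, below the other LV libraries at 129 to 137 CPM. The share of Celf1 in the sum of Celf1 and Celf2 was 54.5% in the same library, against 61.2 to 62.2% in the others. Fast fibre markers summed to 24487 CPM in WT LV replicate 2, and their part in its Rbfox1 values was not tested.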

How the results depend on the processing

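Between LV and SkM, 102 of 110 values of members kept their direction and side of the threshold over 11 alternatives, and 7123 to 9860 genes were called. With total counts without TMM, Rbm24 was at 0.34, Rbfox2 at 0.53, Celf1 at 0.10 and Srpk3 at 0.24. Over the 5 mice left out in turn, Rbfox2 ran from -0.20 to 0.0308. Rbm24 passed the threshold lower in LV with DESeq2 and without WT replicate 1, and higher in LV with total counts, where Rbfox2 and Srpk3 also passed it and Celf1 and Mbnl2 did not.

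Between genotypes in LV, DESeq2 called 12 genes, the replicate block 5, and leaving out libraries 0 to 578, the highest without WT replicate 1, and the cause was not tested. Over left-out libraries in LV, Rbm20 ran from -0.10 to 0.21, Rbm24 from -0.19 to 0.00376 and Rbfox2 from -0.11 to 0.0548, and Rbfox2 was at 0.00522 with total counts. In SkM the replicate block called 1 gene. Rbm20 was at -0.00776 with DESeq2 size factors and -0.00780 with the DESeq2 Wald test. Over left-out libraries in SkM, Rbm20 ran from -0.26 to 0.33, Rbm24 from -0.12 to 0.46, Rbfox1 from -0.18 to 0.26, Celf2 from -0.0543 to 0.15, Ptbp1 from -0.50 to 0.65 and Srpk3 from -0.0106 to 0.19. For the interaction, 0 to 155 genes were called over left-out mice, the highest without WT replicate 1, and Rbm20 ran from -0.51 to 0.51. The cause of these changes of sign was not tested. The replicate block changed no call of a member. The within-library ratios kept their direction in all 6 alternatives, which was fixed in advance where all mice had the same direction. Only Rbm20 to Ptbp1, higher in LV in 3 of 5 mice, could have changed when a mouse was left out. Leaving out a WT library left 1 WT sample, which is assumed to vary like the E0del/+ samples. The 0 calls between genotypes with 2 WT mice do not show equal levels.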
